A study of Homo sapiens with 4 samples.

Results

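The BCL2 family decides whether the outer membrane of the mitochondrion stays closed or opens during apoptosis. Its 10 members considered here were given by gene symbol as a fixed list and fall into the effectors BAX and BAK1, the BH3-only proteins BAD, BBC3, PMAIP1, BID, BIK and BCL2L11, and the antiapoptotic proteins BCL2L1 and MCL1. Of these 10 genes, 5 were found in the deposited table of 6828 genes, namely BBC3, BAD, BID, BAK1 and MCL1. The other 5 members, BAX, PMAIP1, BIK, BCL2L1 and BCL2L11, have no values in it, so their expression was not analyzed here.

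A549 is a human lung adenocarcinoma cell line of epithelial origin. RNA was taken 72 h after infection with lentivirus carrying a control shRNA (shctrl) or an shRNA against the long noncoding RNA USP2-AS1 (shUSP2-AS1), with 2 libraries in each group, given as biological replicates. Both groups therefore share the lentiviral vector and its puromycin selection, and the knockdown group stands for a single shRNA, so that a response to this hairpin and the loss of USP2-AS1 cannot be told apart. The comparison asks which genes depend on USP2-AS1, in a study that follows the transcription factors c-Myc and E2F1.

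When effector proteins such as BAK1 and BAX assemble in the outer mitochondrial membrane, cytochrome c leaves the mitochondrion and caspases are activated. Antiapoptotic proteins such as MCL1 hold the effectors in check by binding them, and BH3-only proteins set them free, either by occupying the groove of the antiapoptotic proteins or by binding the effectors directly. Several BH3-only genes are controlled at the level of transcription, among them BBC3, which encodes PUMA.

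Every gene in the table has an adjusted p below 0.05 in the authors' own comparison of the same 4 libraries, so each listed member had already been selected for a difference. The tests reported here repeat that comparison and are not independent evidence that a listed gene differs. They serve to describe sizes and errors within these libraries. Because the genes were selected on the same values, the sizes may be too large and the errors and adjusted p too small. The table holds 10772788 to 14120472 reads per library on the listed genes, which is only part of each library's depth. USP2-AS1, the target of the shRNA, had normalized read counts of 23.2 and 24.2 in shctrl and of 2.10 and 6.16 after knockdown (log2 fold change -2.39, SE 0.56, adjusted p = 0.000597). The epithelial keratins KRT7, KRT8, KRT18 and KRT19, 4 of 6 epithelial markers, were listed at 3254 to 87504 normalized reads in every library. None of the 4 leukocyte and 3 endothelial markers was listed, whereas 1 of 4 fibroblast markers, COL1A1, had 261 and 293 normalized reads in shctrl and 530 and 618 in shUSP2-AS1. The epithelial markers EPCAM and CDH1 were not listed either. Only genes that differed are listed, so a marker that is absent may be unexpressed or unchanged. Its absence does not show which cells were present. COL1A1 was called higher and KRT18 lower. The other keratins were not called and went both ways, with log2 fold changes of -0.49 for KRT7, -0.77 for KRT8 and 0.75 for KRT19. The part of these markers in the results was not tested. In RNA from whole cultures, fewer cells with a transcript and less of it per cell cannot be told apart.

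The following promoter sequences are shown because they place the listed members beside factors that the study follows, namely MYC and E2F. RefSeq windows (GRCh38.p14) from 250 bases before to 50 bases after a transcription start were found for 8 of the 10 members, and MCL1 and BIK had no entry. Both strands were searched for the E-box CACGTG, the core sequence bound by MYC and MAX, and for the E2F site TTTNNCGC. Stretches of 30 bases on the gene's strand follow, with the motif in capitals. The E-box of BBC3 starts at position -232 from the start (chr19:47232882-47232911, minus strand), and that of BID at -106 or -47 depending on the start (chr22:17774072-17774101, minus strand).
BBC3: atggggagatttCACGTGagatatagatta
BID: ttgtgtcctctcCACGTGgcctggggattc

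An E-box was present in 7.26% of all 35116 windows and the E2F site in 6.89%. These are shares of windows and not of genes, and a gene with several windows has more chances of a match. BID had 5 windows, and only some of them held its E-box. Among the members, the E-box was found in the windows of BBC3, BID and BAX, with 4 copies in BAX. Of the 8 members with windows, the E2F site was found only for BCL2L1. A further motif was searched as well and is not reported here. BBC3 and BID both hold an E-box, and their log2 fold changes in the knockdown had opposite signs, 1.56 and -0.50. A match describes the letters in the window and not binding, and its part in the results was not tested.

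A gene was called where its adjusted p (limma) was below 0.05 and its log2 fold change was 1 or more in size. By this rule 1 of the 5 listed members was called higher in shUSP2-AS1 cells and 0 were called lower. Over all 6812 genes tested, 29.7% were called, 16.1% higher and 13.5% lower, so that 1 of 5 is a share near the background and not a result about the family. BBC3 was the member called, with a ratio of means of 2.94. BAK1, MCL1 and BAD had means 1.56, 1.46 and 1.33 times those of shctrl, and BID 0.708 times. The median log2 fold change of the 5 listed members was 0.55, beside 0.19 over all genes tested. The value over all genes depends on the filter and was -0.18 for genes with a mean of at least 50. In each of the 5 members the libraries of the groups did not overlap, which was so for 100% of the genes tested (6811 of 6812).

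BBC3 (ENSG00000105327) lies on the minus strand of chromosome 19 from 47220822 to 47232766 in GRCh38. Its protein PUMA is a BH3-only protein that binds all the main antiapoptotic members. Its normalized read counts were 439 and 376 in shctrl and reached 1124 and 1274 in shUSP2-AS1. Both knockdown libraries stood far above both control libraries, and the gap between the groups was several times the difference within either. The standard error is abbreviated SE, and the 95% interval is that of the log2 fold change. The mean rose from 407 ± 44.4 to 1199 ± 106 (SD, n = 2). The log2 fold change was 1.56 (SE 0.09, 95% interval 1.37 to 1.75, adjusted p = 3.56e-11). Of the genes tested, 7.41% had a higher log2 fold change. The reads behind these values numbered 454 and 342 in shctrl and 1069 and 1447 in shUSP2-AS1. With the test against a fold change of 2, BBC3 remained called (adjusted p = 6.62e-05). Its exons share 80 bases, 2.5% of their union, with other genes in GENCODE release 44, the largest partner being the microRNA gene MIR3190 on the opposite strand.

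BAD (ENSG00000002330), on the minus strand of chromosome 11 from 64269830 to 64284704, encodes a BH3-only protein that growth factor signaling keeps inactive by phosphorylation. Its normalized read counts were 540.1 and 409.9 in shctrl and 591 and 676 in shUSP2-AS1. The highest control library lay close to the lowest knockdown library, and the control libraries differed from each other by more than that gap. The means were 475 ± 92.1 and 634 ± 60.2 (SD, n = 2). The log2 fold change was 0.43 (SE 0.11, 95% interval 0.19 to 0.66, adjusted p = 0.00145). Without shctrl replicate 2 the log2 fold change was 0.23 and without shctrl replicate 1 it was 0.62, so the size of the difference rests on which control library is used. The exons of BAD share 404 of 1708 bases, 23.7%, with GPR137 on the opposite strand. The library protocol describes no step that marks the strand, and GPR137 is not among the listed genes, so reads from the shared bases cannot be assigned to either gene here.

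BID (ENSG00000015475) lies on the minus strand of chromosome 22 from 17734138 to 17774770 and encodes the BH3-only protein that links death receptors to mitochondria once caspase-8 has cleaved it. It was the only listed member with a lower level in the knockdown, with normalized read counts of 929 and 848 in shctrl and of 631 and 628 in shUSP2-AS1. The knockdown libraries were nearly identical and both lay well below the controls. The means were 888 ± 56.7 and 629 ± 2.27 (SD, n = 2). The log2 fold change was -0.50 (SE 0.08, 95% interval -0.66 to -0.33, adjusted p = 9.44e-06), which did not reach the fold change threshold. Its exons share no base with another gene in the annotation.

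BAK1 (ENSG00000030110), the effector among the listed members, lies on the minus strand of chromosome 6 from 33572547 to 33580293. Its normalized read counts were 487 and 485 in shctrl and 725 and 789.7 in shUSP2-AS1. The control libraries were almost equal and the knockdown libraries were both higher. The means were 486 ± 1.66 and 757 ± 46.1 (SD, n = 2). For BAK1 this gave a log2 fold change of 0.64 (SE 0.08, 95% interval 0.47 to 0.81, adjusted p = 1.11e-06), below the fold change threshold. Among the genes tested, 28.6% had a higher log2 fold change.

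MCL1 (ENSG00000143384), the antiapoptotic member listed, is known for its short-lived protein and lies on the minus strand of chromosome 1 from 150574551 to 150579738. Its normalized read counts were 3709 and 4033 in shctrl and 5639.6 and 5679.6 in shUSP2-AS1. Both knockdown libraries again exceeded both controls. The means were 3871 ± 229.6 and 5659.6 ± 28.3 (SD, n = 2). On the log2 scale MCL1 differed by 0.55 (SE 0.05, 95% interval 0.44 to 0.66, adjusted p = 2.95e-08), also below the fold change threshold. The intervals of BAK1, MCL1 and BAD overlapped one another, so no order among these 3 log2 fold changes can be given, whereas that of BBC3 lay above all of them and that of BID below 0.

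**Figure D1:**
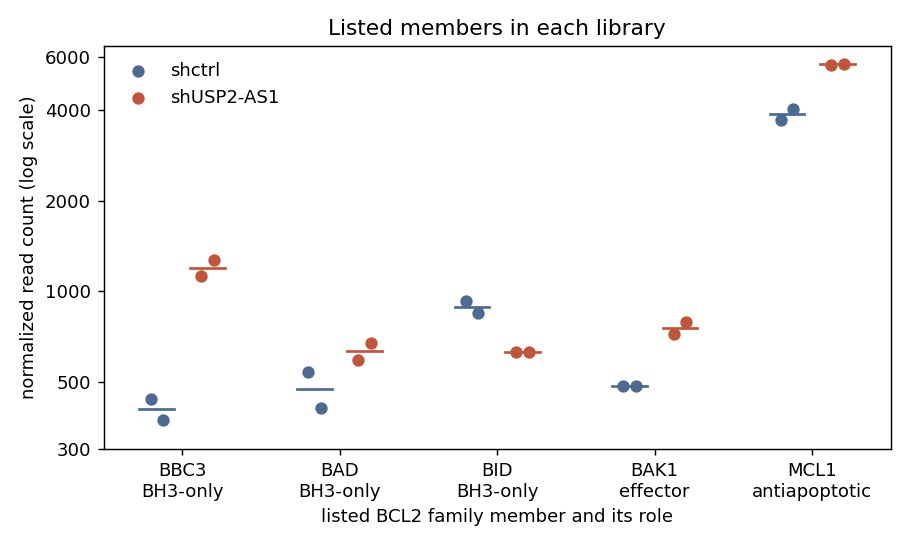
Normalized read count (log scale) of the 5 listed members in each library, with points for the 2 shctrl and 2 shUSP2-AS1 libraries and a line at each group mean. BBC3 shows the widest gap between groups, BID is the only member below its controls, and the control libraries of BAD are the most spread.

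**Figure D2:**
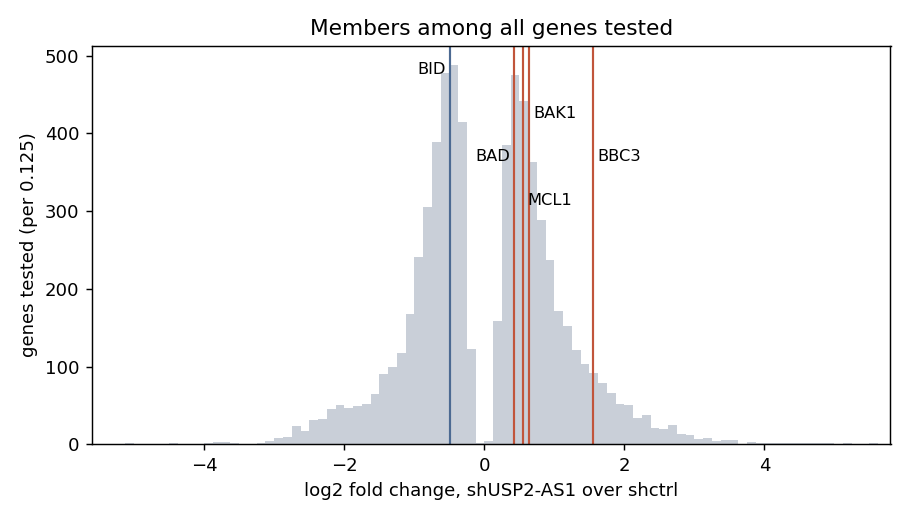
Number of genes tested in each bin of log2 fold change (shUSP2-AS1 over shctrl), with a vertical line for each listed member. The bars are all but empty around 0, where 0 of 6812 genes had an absolute log2 fold change under 0.1, and BBC3 lies in the upper tail whereas the other members lie near the peaks on either side.

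Levels of different genes were compared as normalized reads per kilobase of the gene length in the table. MCL1 was the most abundant listed member on this scale in both groups, with 886 ± 52.5 in shctrl and 1295 ± 6.47 in shUSP2-AS1 (SD, n = 2). In shctrl it was followed by BAD (278 ± 53.9), BAK1 (219.6 ± 0.753), BID (201 ± 12.8) and BBC3 (128 ± 13.95). BAD and BAK1 differed by little more than the spread of BAD, and BAK1 and BID by little more than that of BID. In shUSP2-AS1, BBC3 (376 ± 33.3), BAD (371 ± 35.3) and BAK1 (342 ± 20.8) overlapped across libraries, and BID was lowest with 142 ± 0.513. Within each knockdown library the order was BBC3, BAD and BAK1. Their levels were 353, 346 and 328 in replicate 1, and 400, 396 and 357 in replicate 2. BBC3 and BAD lay close together in both, and the order was not tested. Measured by this length, BBC3 thus went from the lowest level among the listed members to a level among the highest apart from MCL1. The order of the genes depends on the length used, and an order by another length was not made. In GENCODE release 44 the transcript marked canonical has 2177 bases for BID, 929 for BAD, 1846 for BBC3 and 2170 for BAK1. The lengths used here were 4420, 1708, 3185 and 2212. Among all listed genes, 94.0% had a lower level per length than MCL1, taken as the mean over all 4 libraries.

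Within a library, the ratio of one member to another does not depend on how the libraries were scaled. BBC3 amounted to 16.2% and 12.8% of the MCL1 level per length in shctrl and to 27.4% and 30.8% in shUSP2-AS1. BID amounted to 24.8% and 20.8% of MCL1 in shctrl and to 11.1% and 10.9% in shUSP2-AS1. For both genes the groups were separate, in opposite directions. BAK1 amounted to 25.9% and 23.7% in shctrl and to 25.4% and 27.5% in shUSP2-AS1, and here the groups overlapped. BAD overlapped as well, with 37.3% and 26.0% in shctrl and 26.8% and 30.5% in shUSP2-AS1. With 2 libraries in each group an exact permutation test of such a ratio cannot give a two-sided p below 0.333, and none was run.

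**Figure D3:**
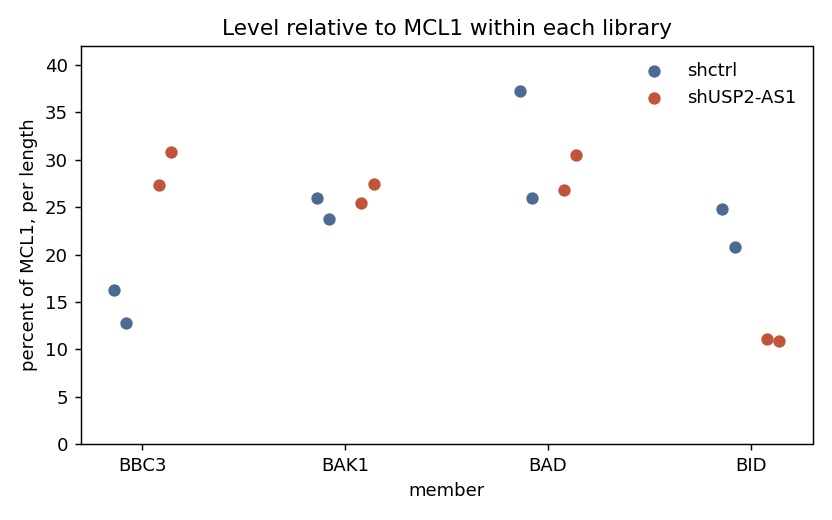
Level per length of BBC3, BAK1, BAD and BID as a percentage of MCL1 in the same library, with 1 point for each of the 4 libraries. Relative to MCL1, BBC3 is higher and BID lower in both knockdown libraries, whereas the points of the groups overlap for BAK1 and BAD.

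Of 16 other BCL2 family genes, 6 were listed, and 1 was called higher, 1 was called lower and 4 were not called. Their median log2 fold change was 0.05, beside 0.19 over all genes tested. With DESeq2, which scaled the libraries anew, their median was -0.07, beside 0.07 over all genes. The log2 fold changes of these 6 genes ran from -1.71 to 2.22. BMF, a BH3-only gene whose protein is tied to the actin cytoskeleton, had normalized read counts of 29.0 and 28.6 in shctrl and 150.4 and 126 in shUSP2-AS1. Its knockdown libraries were several times the controls, although it was the least expressed family gene listed, with 30 and 26 reads in shctrl. The mean rose from 28.8 ± 0.293 to 138 ± 17.3 (SD, n = 2). For BMF this gave a log2 fold change of 2.22 (SE 0.22, adjusted p = 3.96e-08). Its exons share 461 bases, 8.5%, with other genes, of which BMF-AS1 on the opposite strand is the partner.

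BCL2L12, an atypical family member, had normalized read counts of 818 and 780.3 in shctrl and 231 and 255 in shUSP2-AS1. The mean fell from 799 ± 27.0 to 243 ± 17.0 (SD, n = 2). On the log2 scale BCL2L12 differed by -1.71 (SE 0.09, adjusted p = 1.77e-11). BCL2L12 shares 734 exonic bases, 25.9%, with IRF3 on the opposite strand, and IRF3 had a log2 fold change of -0.72. The antiapoptotic gene BCL2L2 had a log2 fold change of -0.38 (adjusted p = 0.000458), and 24.8% of its exonic bases are shared with other genes. BNIP3, which takes part in the removal of mitochondria, had -0.32 (adjusted p = 0.00186), whereas its relative BNIP3L had 0.49 (adjusted p = 2.32e-06) and BCL2L13 had 0.42 (adjusted p = 3.94e-05). Without shctrl replicate 1 the value of BNIP3 was -0.20, and without shUSP2-AS1 replicate 1 it was -0.21. None of these 4 genes reached the fold change threshold. With the 5 members, 3 of 11 listed family genes were called, beside 29.7% of all genes tested.

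**Figure D4:**
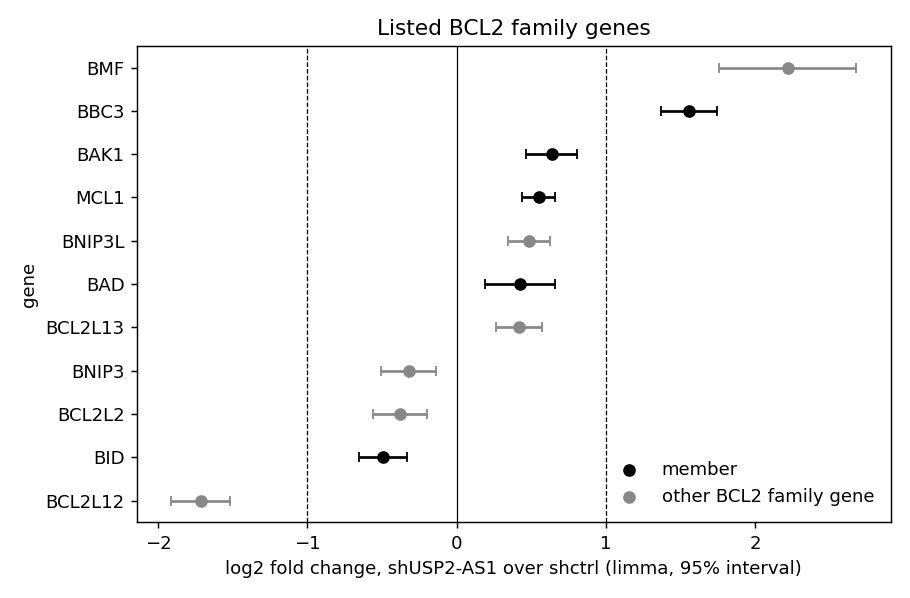
Log2 fold change (shUSP2-AS1 over shctrl) of the 11 listed BCL2 family genes from limma, with 95% intervals, members in black, other family genes in gray and dashed lines at -1 and 1. BMF and BBC3 lie above 1 and BCL2L12 below -1, and the other 8 genes lie between the lines.

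The genes around the family were taken from 4 further lists, of which 37 of 65 genes were listed and 8 of the 37 were called, beside 29.7% of all genes tested (16.1% higher and 13.5% lower). The counts of each list below stand beside these shares and beside a median log2 fold change of 0.19 over all genes tested, and with so few genes a list nothing is read from them about the lists. In the death receptor pathway, 9 of 16 genes were listed, 3 were called higher (16.1% of all genes) and 0 lower (13.5% of all genes), and the median log2 fold change was 0.76, beside 0.19 over all genes. FAS, the receptor of FAS ligand, rose from 355 ± 3.17 to 1356 ± 0.487 (SD, n = 2). For FAS this gave a log2 fold change of 1.93 (SE 0.07, adjusted p = 2.18e-13). TNFRSF10D and TNFRSF10C, decoy receptors of the ligand TRAIL, rose by log2 fold changes of 1.93 (adjusted p = 3.88e-14) and 1.72 (adjusted p = 2.84e-07). The signaling TRAIL receptors TNFRSF10A and TNFRSF10B had log2 fold changes of 0.76 and 0.84 and were not called, nor was CFLAR, an inhibitor of caspase-8, with 0.35. BID, the link from these receptors to mitochondria, was the member with the lower level.

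Of 18 genes of mitochondrial release and the caspases, 11 were listed, with 1 called higher, 1 called lower and a median log2 fold change of -0.26, and 2 of 11 called is below the 29.7% of all genes. CASP2, an initiator caspase, fell by 1.14 on the log2 scale (adjusted p = 1.2e-09), a call lost in the test against a fold change of 2. APAF1, the scaffold on which cytochrome c activates caspase-9, had -0.72, and CYCS, which encodes cytochrome c, had -0.19, with neither called. Among 7 inhibitors of apoptosis, 4 were listed, and BIRC5, which encodes survivin and also serves in mitosis, was the 1 called, which is not above the 29.7% of all genes. Its mean fell from 2255 ± 116 to 458 ± 44.2 (SD, n = 2). On the log2 scale BIRC5 differed by -2.30 (SE 0.08, adjusted p = 3.21e-14). BIRC3, BIRC6 and BIRC7 had log2 fold changes of 0.40, 0.45 and 0.81.

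Among 24 regulators of BCL2 family genes or proteins, 13 were listed, with 1 called higher and 1 called lower, and their median log2 fold change was -0.20. The 2 of 13 called are below the 29.7% of all genes. E2F1, on which the study centers and which can itself activate BH3-only genes, fell from 1261 ± 27.98 to 289.6 ± 19.96 (SD, n = 2), a log2 fold change of -2.12. TP63, a transcription factor of squamous epithelia, rose by 1.58 on the log2 scale (adjusted p = 3.66e-06, lost in the test against a fold change of 2) at a low level of 33.0 to 127 normalized reads. MDM2, a ubiquitin ligase, had a log2 fold change of 0.69 and MYC had -0.46, and neither was called. JUN had 0.89, FOXO3, an activator of BH3-only genes, had 0.52, and USP9X, which removes ubiquitin from MCL1, had -0.20. None of these reached the fold change threshold.

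**Figure D5:**
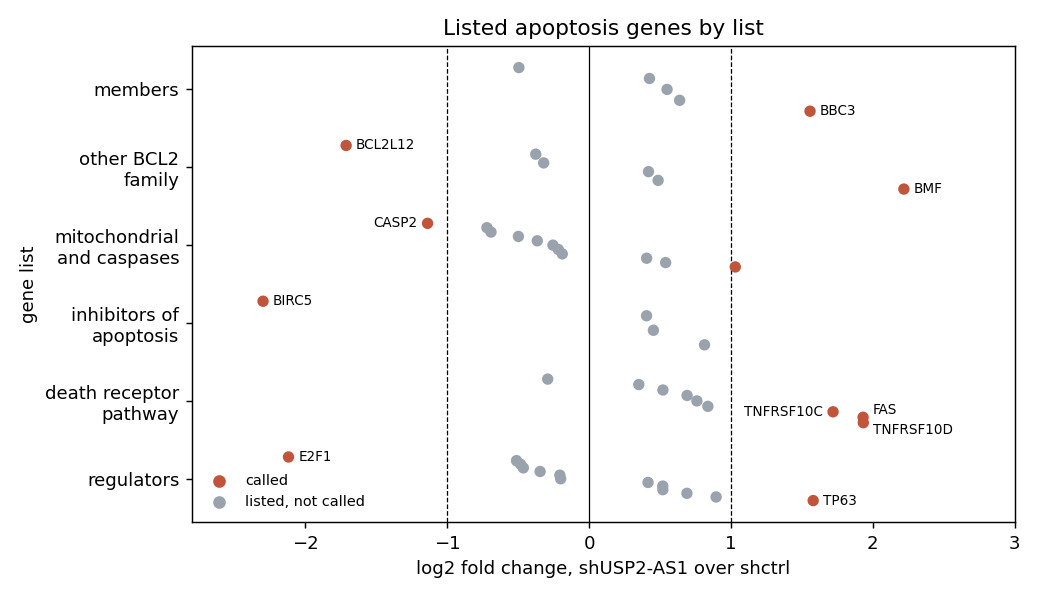
Log2 fold change (shUSP2-AS1 over shctrl) of the listed genes of each list, with called genes in red, all but 1 of them named, other listed genes in gray, and dashed lines at -1 and 1. In the death receptor pathway 8 of 9 listed genes lie above 0 and in mitochondrial release and caspases 3 of 11, beside 3450 of 6812 genes tested, most of these list genes were not called, and the lists were not tested against each other.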

How the data were processed

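The libraries were made from poly(A) RNA, and per the labels the authors used HISAT2 (version 2.0.5), featureCounts (version 1.5.0-p3) and DESeq2 (version 1.20.0) on hg38. The deposited values are a normalized signal, namely reads counted per gene over the size factor of each library. The authors also deposited their own fold changes and p-values. The adjusted p-value was read only to check that all 6828 genes lie below 0.05. Dividing by the value of 1 read (0.966, 1.10, 1.05 and 0.88) gave whole reads for 100% of values, within 0.01.

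Control columns (scr) were read as shctrl and the others as shUSP2-AS1, each by the replicate number in its title. Log2(value + 1), which understates changes of low genes, was fitted with limma (version 3.58.1, R version 4.3.3, trend) for genes with a mean of at least 10, leaving out 16, and p was adjusted by Benjamini-Hochberg over 6812 genes. As alternatives, edgeR (version 4.0.16) and DESeq2 (version 1.42.0) were run on the recovered reads. Chi-square per degree of freedom between replicates was 3.75 and 3.84, above counting noise. The fits were tested on simulated data.

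The members and lists were chosen with earlier results of these data known. Named are all members, other listed family genes and from each further list up to 3 called genes in each direction, taken by p. Some genes of these lists are counted but not reported here by name. The other list genes named were chosen after their values were seen. Of the listed identifiers, 6717 were in GENCODE release 44, and all overlapped its gene. That release extends MCL1 to 150560895, which is the 3' end of this minus-strand gene.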

Additional observations from a re-analysis of the deposited data

How the results depend on the processing

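Over 16 alternatives (another pseudocount, other filters, TMM, RLE and upper quartile scaling, edgeR, DESeq2, the replicate number as a block, other thresholds, 20000 tests and each library left out), all 11 listed family genes kept their direction, and all kept their call except where the adjusted p alone was used. That threshold called 5 members, 43 of the wider genes (the 43 listed of 81 family and pathway genes other than the members) and 6811 genes in all, in place of 1, 10 and 2020, and testing against a fold of 2 left 1064 genes in all. Leaving out 1 library gave 1939 to 2030 genes. The replicate block called 2020 genes, 1 member and 10 wider genes, and same-numbered libraries showed no shared deviation (correlation -0.04 across genes), so numbers were not taken as pairs. BBC3 ranged from 1.44 to 1.67, BMF from 2.09 to 2.35, BCL2L12 from -1.83 to -1.64, BAK1 from 0.52 to 0.70, MCL1 from 0.43 to 0.61, BID from -0.61 to -0.43 and BAD from 0.23 to 0.62 on the log2 scale. RLE scaling moved the median of all genes from 0.19 to 0.07 and called 930 higher and 1143 lower, beside 1098 and 922. The filter of a mean of at least 50 changed the sign of that median, to -0.18, so medians of lists set beside it depend on the filter. Of the 10 wider genes called, RLE scaling and DESeq2 each called 9, and testing against a fold of 2 called 7. Depth limits USP2-AS1, BMF, TNFRSF10C and TP63 most, as these had few reads.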
